A study of Mus musculus with 6 samples.

Results

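Collagen-modifying and crosslinking enzymes were followed as 10 genes among the 55487 of the deposited tables, chosen by name, with earlier results of these data known. They are the prolyl 4-hydroxylase subunits P4ha1, P4ha2 and P4hb, the lysyl hydroxylases Plod1, Plod2 and Plod3, the collagen chaperones Serpinh1, Crtap and Ppib, and the lysyl oxidase Lox. All 10 had enough reads for the test, with 1782 to 117745 counts per library. They were measured by sequencing of stranded mRNA libraries of cultured chondrocytes, the matrix-making cells of cartilage, taken from knee cartilage of C57B/6 mice and grown with heat-inactivated serum. In 3 libraries the cells had been given extracellular vesicles, membrane particles that cells release, of LPS-stimulated macrophages (M-LPS-EV). In the other 3 the vesicles came from macrophages without LPS (M-EV). Both kinds were given for 24 h, at 10 µg/ml by their protein content. Cells without vesicles were not analysed here, so each difference is between the vesicle types. The sources used here do not give the age of the mice, the passage of the cells or the macrophage source, nor whether the 3 libraries of a group came from separate cultures or animals. P-values thus measure only the spread between these libraries, which may be technical. The series title asks whether vesicles of inflammatory macrophages lead to cartilage catabolism.

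Collagen chains are modified while they are still in the endoplasmic reticulum. Prolyl 4-hydroxylase, built from an α subunit (P4ha1 or P4ha2) and the disulfide isomerase P4hb, makes the hydroxyproline that keeps the triple helix stable. Lysyl hydroxylases make hydroxylysine, which carries sugars and sets the chemistry of later crosslinks. Serpinh1, also called HSP47, binds the folded helix, and Crtap and the prolyl isomerase Ppib act in a complex with the prolyl 3-hydroxylase P3h1. Outside the cell, lysyl oxidases oxidise lysine and hydroxylysine so that chains become crosslinked in the fibril. Cartilage depends on these steps because its main fibril, collagen II, is long-lived and heavily hydroxylated on lysine.

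Lox, P4ha2, Plod1 and Plod2 rose in chondrocytes given M-LPS-EV, while Serpinh1, Plod3, Crtap, Ppib and P4hb fell and P4ha1 was not called. Lox rose most, by 2.58-fold, and Serpinh1 fell most, to 0.747 of its M-EV level. Calls are genes with an adjusted p under 0.05 in edgeR's two-sided quasi-likelihood test, with Benjamini-Hochberg adjustment over 14604 genes. The 9 calls stand against 31.6% of all tested genes called in either direction, the 4 rises against 16.4% and the 5 falls against 15.2%. The groups did not overlap in TPM, an abundance scaled by transcript length and library depth, for 9 of the 10 genes, beside 35.9% of all tested genes. Abundant genes were called more often, with abundance taken as the mean CPM (the count scaled to library size) over the 6 libraries. Lox was the least abundant of the 10 on that scale. Among the 969 tested genes at least as abundant as Lox, 63.9% were called, 26.1% higher and 37.8% lower. Against a change of at least 1.2-fold, 4 calls were left (Lox, P4ha2, Plod1 and Serpinh1), beside 7.79% of all tested genes. The calls of Plod2, Plod3, Crtap, Ppib and P4hb ended in that test, each with an edgeR adjusted p = 1. The median log2 fold change of the 10 genes was -0.03, beside 0.003 over all tested genes, so the rises and falls lay on both sides of no change.

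**Figure D1:**
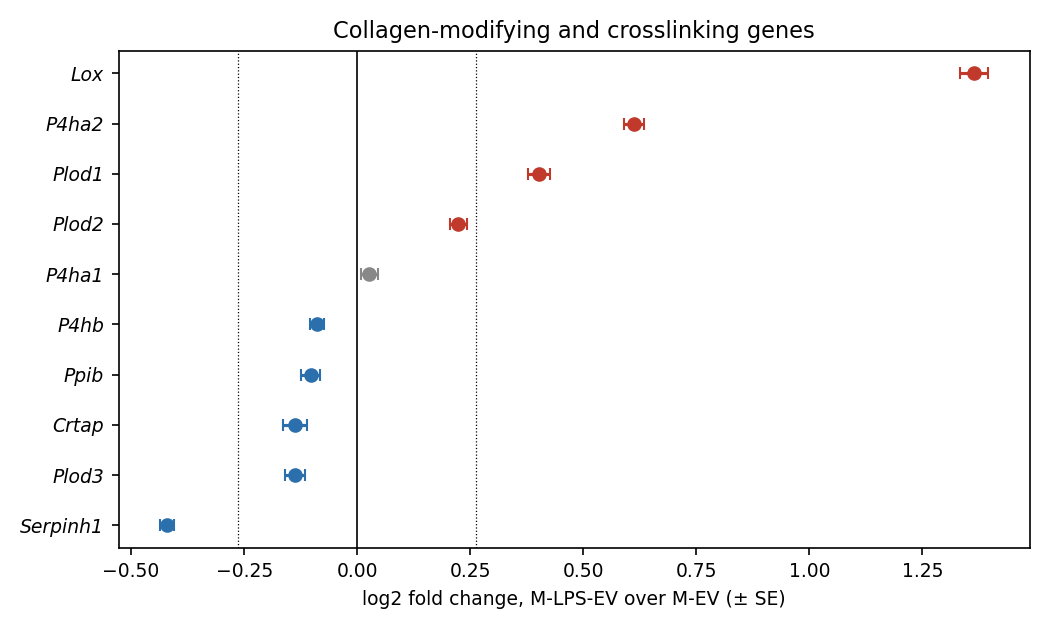
Log2 fold change of M-LPS-EV over M-EV for the 10 genes, with bars of 1 SE from edgeR; red marks genes called higher, blue genes called lower and grey the gene not called, and dotted lines mark a 1.2-fold change. Lox stands apart at 1.36 and Serpinh1 at -0.42, and the other 8 genes lie between -0.14 and 0.61.

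The coding sequence of 2 of the genes differs between their main transcripts, so these exons are given first. Plod2 (chromosome 9, 92542223 to 92608428, plus strand, GRCm38) has a coding exon of 63 bases, exon 14 of 20 in transcript Plod2-203, that transcript Plod2-201 skips. The long form of its enzyme is the one known for hydroxylating the ends of collagen chains, where crosslinks form. In the lines below capitals mark the exon, at chr9:92601985-92602047, and lower case the 20 bases on either side of it in the spliced transcript; the second line gives the same flanks joined without the exon.
Plod2-203: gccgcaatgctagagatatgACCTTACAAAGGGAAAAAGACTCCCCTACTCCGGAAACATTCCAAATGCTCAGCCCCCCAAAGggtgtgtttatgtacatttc
Plod2-201: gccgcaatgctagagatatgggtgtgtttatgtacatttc

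P4ha2 (chromosome 11, 54100095 to 54131665, plus strand) uses a pair of alternative coding exons. Transcript P4ha2-201 holds a 66-base exon at chr11:54126346-54126411, and P4ha2-202 holds in its place a 60-base exon at chr11:54126238-54126297, each exon 13 of 16. The flanks in lower case are the same in both lines, and capitals mark the exon that differs.
P4ha2-201: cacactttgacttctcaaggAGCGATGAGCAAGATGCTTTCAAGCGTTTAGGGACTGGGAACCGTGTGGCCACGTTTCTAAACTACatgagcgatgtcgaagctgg
P4ha2-202: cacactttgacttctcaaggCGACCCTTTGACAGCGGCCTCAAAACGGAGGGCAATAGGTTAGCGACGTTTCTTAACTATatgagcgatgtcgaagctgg

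The libraries held 20239626 to 23539911 expected counts with M-LPS-EV and 22274687 to 25712667 with M-EV. The chondrocyte label was borne out by its markers: the 10 chondrocyte markers summed to 43400 to 44430 TPM with M-LPS-EV and to 52590 to 53110 TPM with M-EV, and 9 of them fell. Summed levels of the other marker lists were 1425 to 1440 and 1267 to 1273 TPM for 8 fibroblast markers in M-LPS-EV and M-EV libraries, 68.0 to 76.8 and 73.7 to 82.6 TPM for 6 osteoblast markers, 40.1 to 45.7 and 31.3 to 33.9 TPM for 8 macrophage markers, 0.860 to 1.25 and 0.920 to 1.00 TPM for 4 endothelial markers and 3.62 to 5.37 and 3.77 to 5.33 TPM for 3 muscle markers. Of the macrophage markers, Ptprc stood at 0.143 and 0.170 TPM and C1qa at 0.0667 and 1.12 TPM, both with too few reads for the test. Lyz2 stood at 34.5 and 24.3 TPM and Adgre1 at 1.55 and 0.623 TPM, both called higher. Of the tested genes of these lists 2 of 8 fibroblast markers were called higher and 3 lower, 2 of 5 osteoblast markers higher and 2 lower, and 3 of 6 macrophage markers higher and 0 lower, and their part in the results below was not tested. In bulk RNA a smaller share of chondrocytes and less RNA of a gene per chondrocyte cannot be told apart.

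Of the prolyl 4-hydroxylase genes, only the α subunit gene P4ha2 rose. P4ha2 (ENSMUSG00000018906) stood at 441, 448 and 443 TPM in the M-LPS-EV libraries, against 285, 279.6 and 299 TPM in the M-EV libraries. All 3 M-LPS-EV libraries lay above all M-EV libraries. The means were 444 ± 3.21 and 288 ± 9.83 TPM (SD, n = 3 each), and the log2 fold change from edgeR was 0.61 with an SE of 0.02 (adjusted p = 2.0e-17).

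P4ha1 (ENSMUSG00000019916; chromosome 10, 59323296 to 59373304, plus strand), which also codes for an α subunit, stood at 393, 383 and 385 TPM with M-LPS-EV and at 387, 379 and 386 TPM with M-EV. The groups overlapped, and the log2 fold change from edgeR was 0.03 with an SE of 0.02 (adjusted p = 0.30). P4hb (ENSMUSG00000025130; chromosome 11, 120560298 to 120573253, minus strand), which holds the α subunits in solution and also acts as a general disulfide isomerase, stood at 1157, 1175 and 1199.9 TPM with M-LPS-EV, against 1265, 1229 and 1249 TPM with M-EV. Its groups did not overlap, but the fall was small, and the log2 fold change from edgeR was -0.09 with an SE of 0.02 (adjusted p = 7.9e-05).

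The order of P4ha1 and P4ha2 in gene-level TPM differed between the groups. P4ha3, a further α subunit gene that is not among the 10, averaged 25.7 ± 1.102 TPM with M-LPS-EV and 27.9 ± 1.35 TPM with M-EV (SD, n = 3 each), was not called (edgeR adjusted p = 0.30) and is left out of the share and the ratio that follow. P4ha2 made up 52.9%, 53.9% and 53.5% of the summed P4ha1 and P4ha2 TPM with M-LPS-EV, against 42.4%, 42.5% and 43.6% with M-EV. In gene-level TPM, P4ha2 was thus the more abundant of the pair in every M-LPS-EV library, and P4ha1 in every M-EV library. The P4ha2 TPM includes short transcripts, such as P4ha2-208 of 758 bases at 21.5, 23.4 and 23.2 TPM with M-LPS-EV. Of its longer coding forms, P4ha2-202 stood at 175.62, 161.66 and 170.71 TPM with M-LPS-EV. There P4ha2-201 stood at 131.21, 142.32 and 132.87 TPM, and P4ha2-215 at 68.22, 75.58 and 70.94 TPM. Together these longer forms stayed below the P4ha1 TPM in every library, so the change of order was not seen without the other forms. In CPM (the count scaled to library size, not to length), P4ha1 averaged 647 and P4ha2 469 with M-LPS-EV. With M-EV they averaged 635 and 307 CPM, so the change of order was not seen on that scale. P4hb stood at 1.42 ± 0.0309 TPM per TPM of P4ha1 and P4ha2 with M-LPS-EV, against 1.86 ± 0.0301 with M-EV (SD, n = 3 each). The differences in the P4ha2 share and the P4hb ratio each had p = 0.10 in a two-sided exact permutation test over libraries. That is the smallest value that 3 against 3 allows, and both had an adjusted p = 0.107 over 16 such shares and ratios.

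**Figure D2:**
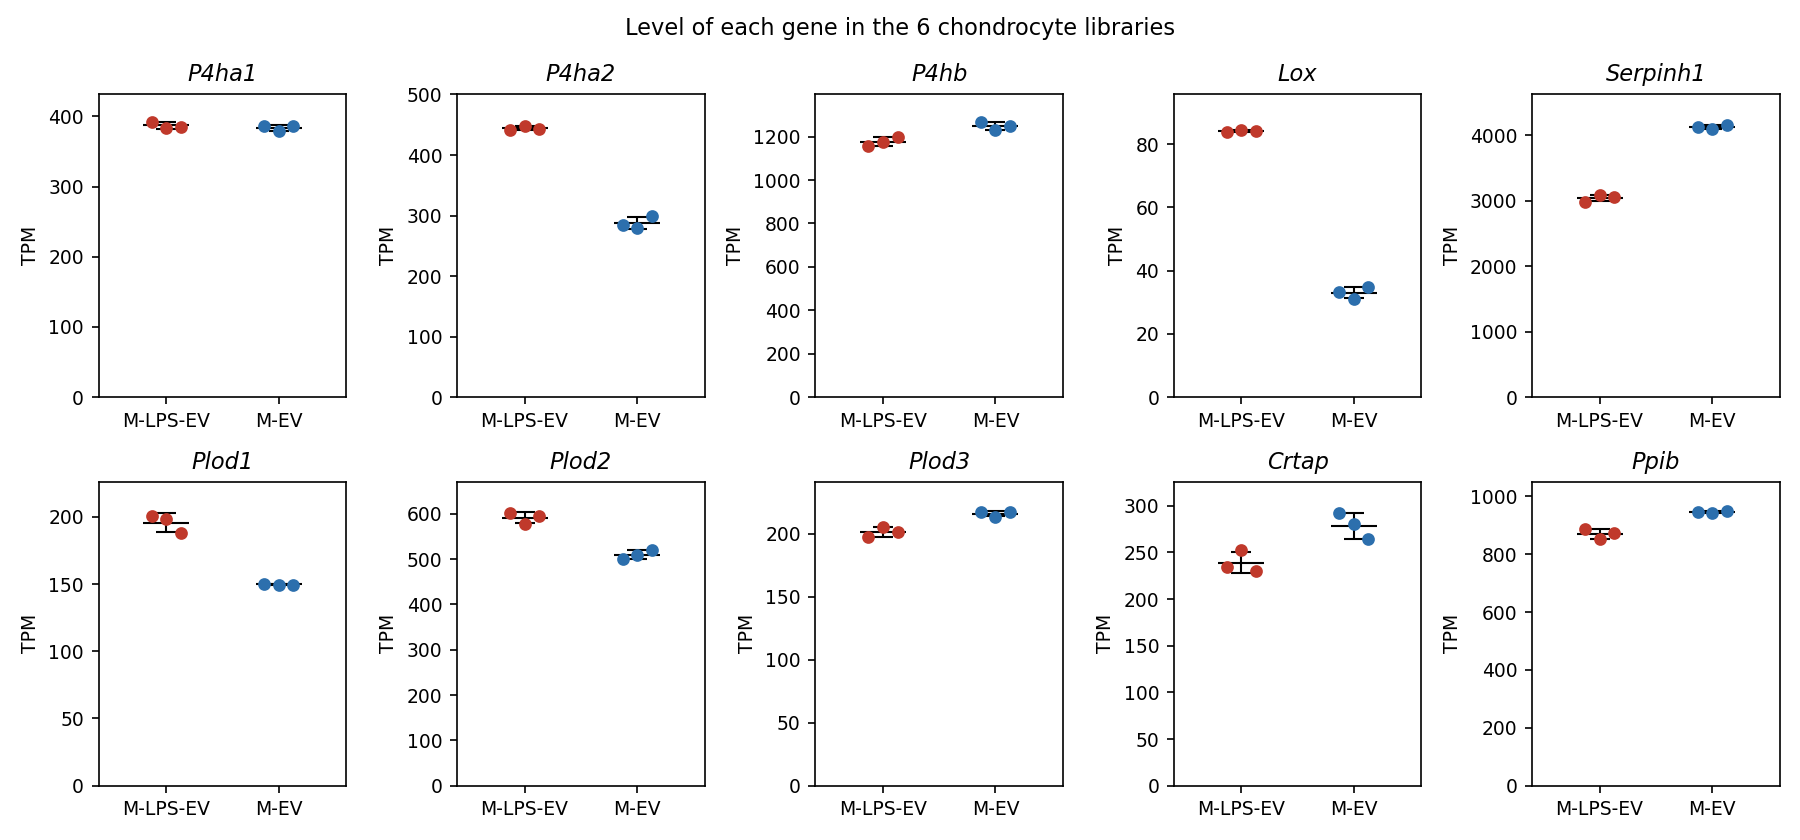
TPM of each gene in each library, with M-LPS-EV libraries in red, M-EV libraries in blue, and the mean and SD of each group in black; all axes start at 0. P4ha2, Lox, Plod1 and Plod2 lie higher with M-LPS-EV, Serpinh1 and the small falls of P4hb, Plod3, Crtap and Ppib lower, and P4ha1 overlaps.

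Among the lysyl hydroxylases Plod1 and Plod2 rose and Plod3 fell. Plod1 (ENSMUSG00000019055; chromosome 4, 147909753 to 147936767, minus strand), which hydroxylates lysines within the helix, stood at 201, 199 and 188 TPM with M-LPS-EV, against 150.4, 149.6 and 149.7 TPM with M-EV. The M-EV libraries lay within 1 TPM of each other and all below the M-LPS-EV libraries. Its log2 fold change was 0.40 (SE 0.02, edgeR adjusted p = 5.8e-13).

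Plod2 (ENSMUSG00000032374) stood at 602, 578 and 595 TPM with M-LPS-EV, against 501, 509 and 520.2 TPM with M-EV. The groups did not overlap, and the log2 fold change from edgeR was 0.22 with an SE of 0.02 (adjusted p = 6.3e-10). Plod3 (ENSMUSG00000004846; chromosome 5, 136987019 to 136996648, plus strand), which also transfers glucose onto hydroxylysine-linked galactose, stood at 197, 205 and 201 TPM with M-LPS-EV, against 217, 213 and 217 TPM with M-EV. Here too the groups did not overlap, and the log2 fold change from edgeR was -0.14 with an SE of 0.02 (adjusted p = 1.9e-05).

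Plod2 was the main lysyl hydroxylase transcript in every library. It held 60.2%, 58.9% and 60.5% of the Plod1, Plod2 and Plod3 TPM with M-LPS-EV, and 57.7%, 58.3% and 58.7% with M-EV. Plod1 held 19.8 ± 0.631% with M-LPS-EV and 17.1 ± 0.222% with M-EV, and Plod3 held 20.4 ± 0.591% and 24.7 ± 0.305% (SD, n = 3 each). In gene-level TPM, Plod3 was the second most abundant in all M-EV libraries, while with M-LPS-EV Plod1 was ahead of it in replicate 1 only. On that scale Plod1 and Plod3 did not differ beyond the spread of the M-LPS-EV libraries. The Plod3 TPM includes short transcripts, such as Plod3-206 of 932 bases at 41.98, 39.39 and 39.29 TPM with M-LPS-EV. The main coding transcript Plod1-201 stood at 195.4, 192.44 and 183.75 TPM with M-LPS-EV, against 143.65, 138.64 and 136.97 TPM of Plod3-201. With M-EV the order was the reverse, with 146.36, 144.59 and 144.37 against 156.24, 155.09 and 156.98 TPM. In CPM, Plod1 averaged 337 and Plod3 273 with M-LPS-EV, and 255 and 301 with M-EV. All 3 gene shares had an exact permutation p = 0.10 (adjusted p = 0.107).

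**Figure D3:**
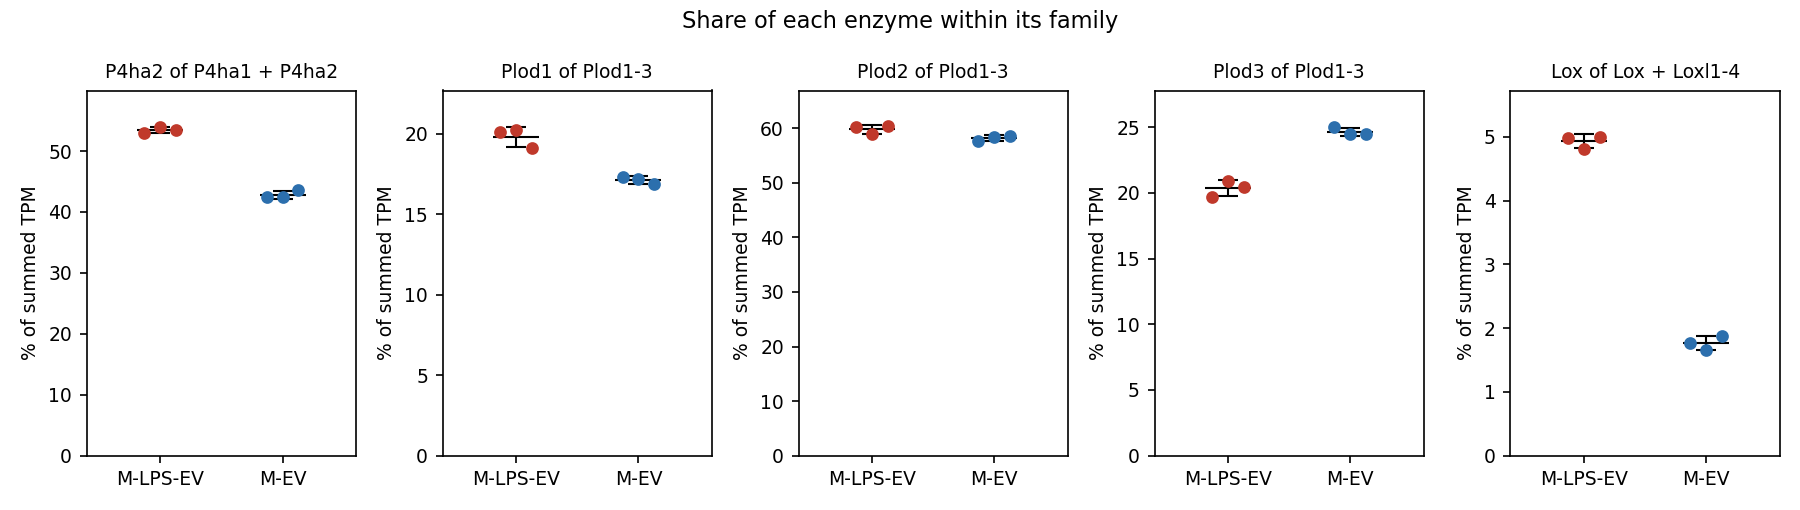
Percent of its family's summed TPM held by P4ha2, by Plod1, Plod2 and Plod3 and by Lox in each library (points), with group mean and SD in black and M-LPS-EV to the left; all axes start at 0. P4ha2 averaged 53.4% with M-LPS-EV and 42.8% with M-EV, and Lox 4.93% and 1.77%.

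All 3 chaperone genes fell, and of these Serpinh1 fell most. Serpinh1 (ENSMUSG00000070436; chromosome 7, 99345376 to 99353239, minus strand), the most abundant of the 10 genes, stood at 2986, 3088 and 3053 TPM with M-LPS-EV, against 4128, 4090.1 and 4154 TPM with M-EV. All M-LPS-EV libraries lay below all M-EV libraries, and the gap was far wider than the range within either group. The means were 3042 ± 51.5 and 4124 ± 32.1 TPM (SD, n = 3 each), and the log2 fold change from edgeR was -0.42 with an SE of 0.02 (adjusted p = 2.8e-17).

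Crtap (ENSMUSG00000032431; chromosome 9, 114375134 to 114390675, minus strand), the cartilage-associated protein, stood at 235, 252 and 230.3 TPM with M-LPS-EV, against 292, 279.9 and 264 TPM with M-EV. Its groups did not overlap, and its log2 fold change from counts was -0.14 (SE 0.03, edgeR adjusted p = 0.00018). On the TPM scale the ratio of means was 0.858, lower than the fold of 0.909 from counts, and its short transcript with a retained intron took 18.6%, 27.8% and 18.2% of its abundance with M-LPS-EV and 29.6%, 31.0% and 20.9% with M-EV.

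Ppib (ENSMUSG00000032383; chromosome 9, 66060222 to 66066623, plus strand) stood at 886, 853 and 873 TPM with M-LPS-EV, against 946, 943 and 949 TPM with M-EV. The groups did not overlap, and its log2 fold change was -0.10 (SE 0.02, edgeR adjusted p = 0.00034). In the annotation 45.2% of the 75-base stretches of its main transcript also occur on the opposite strand in Snx22, a neighbouring gene, and how the authors counted by strand is not given in the sources used here. Snx22 itself stood at 19.2 ± 0.681 CPM (the count scaled to library size) with M-LPS-EV and at 24.2 ± 1.52 CPM with M-EV, beside 358 ± 5.17 and 385 ± 0.534 CPM of Ppib. Plod3 shares 11.9% of such stretches with Znhit1 and Plod2 7.61% with Gm38391 on the opposite strand, and both neighbours were not called (edgeR adjusted p = 0.094 and 0.79). The part of these overlaps in the results was not tested.

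P3h1, the partner of Crtap and Ppib, fell as well, to 197 ± 7.96 TPM with M-LPS-EV, against 263 ± 4.79 TPM with M-EV (SD, n = 3 each; log2 fold change -0.36, SE 0.02, edgeR adjusted p = 1.0e-12). All 3 transcripts of that complex were therefore lower, P3h1 with the largest fall of them.

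In TPM, Lox was the least abundant of the 10 genes with either vesicle, and it was the one that changed most. In CPM with M-LPS-EV it averaged 220, above Crtap at 171. Lox (ENSMUSG00000024529; chromosome 18, 52516067 to 52529867, minus strand) stood at 84.0, 84.6 and 84.1 TPM with M-LPS-EV, against 33.1, 31.1 and 34.7 TPM with M-EV. The M-LPS-EV libraries lay within 1 TPM of each other and all above the M-EV libraries. The means were 84.2 ± 0.319 and 33.0 ± 1.78 TPM (SD, n = 3 each), and the log2 fold change from edgeR was 1.36 with an SE of 0.03 (adjusted p = 1.3e-21).

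The falls among its paralogs were small. Of 5 tested genes of lysyl oxidase-like enzymes and transglutaminase 2, 4 fell and 0 rose, and none of these 4 calls was left in the test against 1.2-fold. Loxl4 was by far the most abundant, with 1077 ± 28.8 TPM with M-LPS-EV and 1200.5 ± 12.1 TPM with M-EV (log2 fold change -0.14, SE 0.02, edgeR adjusted p = 1.1e-06). Loxl3 stood at 225 ± 5.83 and 282 ± 5.51 TPM (-0.28, SE 0.02) and Loxl2 at 299 ± 10.2 and 324 ± 0.905 TPM (-0.12, SE 0.02). Loxl1 had a log2 fold change of -0.15 (SE 0.04), a call that ended with effective lengths as an offset (edgeR adjusted p = 0.067). Tgm2, which crosslinks proteins through glutamine, had -0.10 (SE 0.05, edgeR adjusted p = 0.15) and was called lower without M-LPS-EV replicate 2 (edgeR adjusted p = 0.041).

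Even after its rise Lox made up a small part of its family. It held 4.99%, 4.81% and 5.0% of the summed TPM of Lox and Loxl1 to Loxl4 with M-LPS-EV, against 1.77%, 1.66% and 1.88% with M-EV (exact permutation p = 0.10, adjusted p = 0.107).

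Set against the collagen chains on which they act, most of the enzymes stood higher. The 19 collagen chain genes of the list summed to 45590 to 46830 TPM with M-LPS-EV and to 53250 to 53770 TPM with M-EV, and 12 of them fell and 5 rose. Col2a1 alone made up most of these sums, with means of 29545 and 33723 TPM (log2 fold change -0.17). The ratios that follow therefore mostly reflect that gene. Per 1000 TPM of these chains, Lox stood at 1.83 ± 0.0330 TPM with M-LPS-EV and at 0.617 ± 0.0326 with M-EV (SD, n = 3 each). P4ha2 stood at 9.65 ± 0.202 and 5.38 ± 0.187, Plod1 at 4.25 ± 0.126 and 2.80 ± 0.00639, and Plod2 at 12.9 ± 0.180 and 9.54 ± 0.214.

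The same ratio was higher with M-LPS-EV for genes whose own level fell a little. P4hb stood at 25.6 ± 0.808 and 23.3 ± 0.234 TPM per 1000 TPM of chains, Plod3 at 4.37 ± 0.147 and 4.04 ± 0.0305, and Ppib at 18.9 ± 0.212 and 17.7 ± 0.0975. P4ha1, whose level was not called, stood at 8.41 ± 0.0262 and 7.18 ± 0.0602. Serpinh1 was the exception, with 66.1 ± 2.08 and 77.1 ± 0.604, so its fall was larger than that of the summed chains. Of the single chains, Col10a1 (-1.045, SE 0.021), Col14a1 (-0.48, SE 0.147) and Col11a2 (-0.45, SE 0.015) had lower log2 fold changes than Serpinh1 (-0.42, SE 0.015). Col14a1 stood at only 1.44 TPM with M-LPS-EV and 2.11 TPM with M-EV, and its call ended in limma on log2(TPM + 1) (adjusted p = 0.080). With that SE its order against Serpinh1 is not set. The other chains that fell did so by less. Crtap stood at 5.20 ± 0.291 and 5.21 ± 0.245 with overlapping groups. The groups did not overlap for the other 9 genes, each with an exact permutation p = 0.10 (adjusted p = 0.107). The sums of the chains did not overlap either, so a gene of steady level, such as P4ha1, also separates in this ratio. How many of all tested genes would do so was not computed, and the separation is not particular to these genes.

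The main transcripts of Plod2 and P4ha2 had overlapping shares with both vesicles. Of the TPM of Plod2-203 and Plod2-201, the form with the 63-base exon printed above held 49.98%, 48.1% and 49.1% with M-LPS-EV, and 49.0%, 46.6% and 49.4% with M-EV. Of the P4ha2 forms with either exon, those with the 66-base exon held 35.0%, 37.5% and 35.5% with M-LPS-EV, and 38.7%, 32.0% and 35.4% with M-EV. The groups overlapped in both cases, and these shares were chosen after transcript values had been seen, so they carry no test of their own.

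In edgeR's test of transcript usage over 6357 genes, 6 were called (0.0944%), and none of the 6 of the 10 genes that could be tested, with a lowest unadjusted p of 0.25. None of them was under an unadjusted p of 0.05. edgeR's gene-level F-test called none either among these 6, although 1, P4ha1, was below 0.05 before adjustment (edgeR adjusted p = 0.36). Its main transcript P4ha1-203 held 75.02%, 75.19% and 74.35% with M-LPS-EV, against 76.48%, 77.38% and 77.57% with M-EV, without overlap. Among minor transcripts, Plod3-202 and P4ha2-205 had shares without overlap as well. These transcripts were picked after their values had been seen. A missing call does not show that usage was the same.

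**Figure D4:**
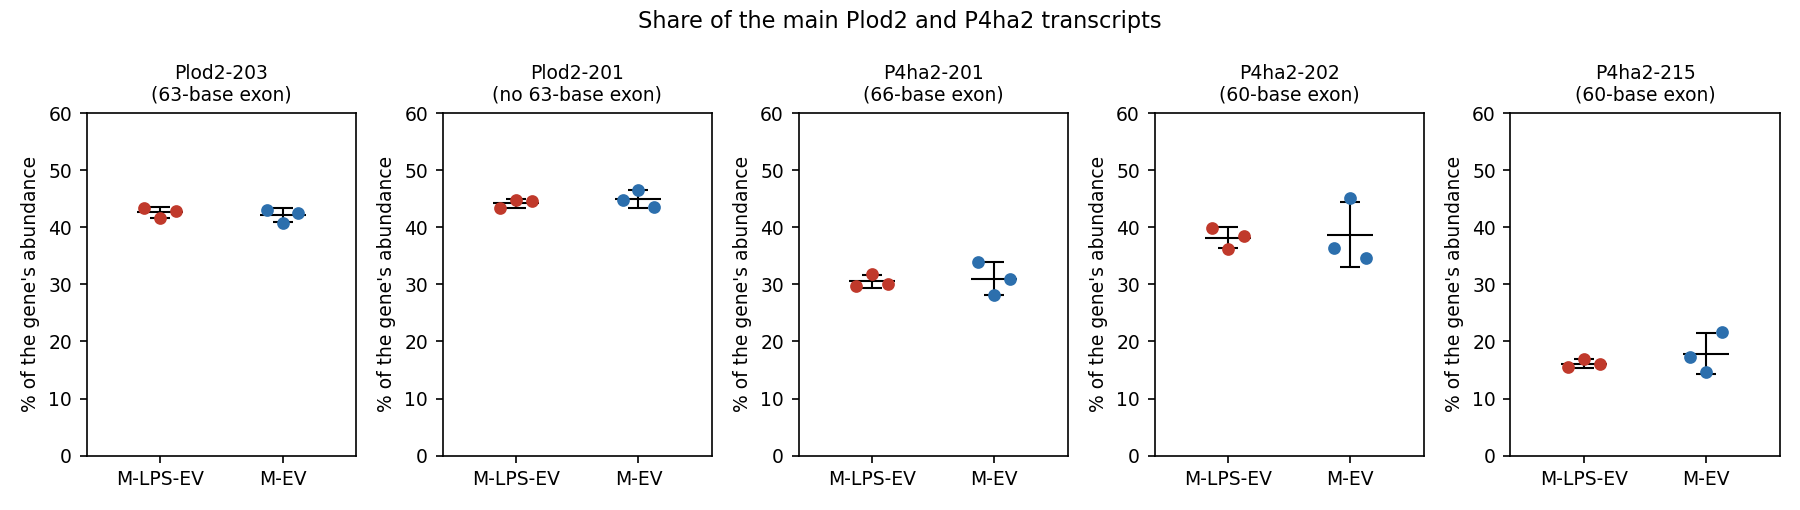
Percent of the gene's abundance, as deposited, held by the main Plod2 and P4ha2 transcripts in each library (points), with group mean and SD in black, M-LPS-EV to the left. Plod2-203 averaged 42.6% with M-LPS-EV and 42.1% with M-EV, and the groups overlap in all 5 panels.

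The other genes of the pathway were taken in lists chosen with earlier results of these data known, and their counts stand beside 15.2% of all tested genes called lower and 16.4% higher, or 37.8% and 26.1% among genes at least as abundant as Lox. Of 7 tested hydroxylases and glycosyltransferases 5 fell and 1 rose, with a median log2 fold change of -0.23; only the fall of P3h1 was left in the test against 1.2-fold. P3h4, a partner of lysyl hydroxylase 1, fell to 133 ± 3.41 TPM with M-LPS-EV, against 167 ± 3.998 TPM with M-EV, and its partner P3h3 was called higher (0.12, SE 0.03), a call that ended with effective lengths as an offset (edgeR adjusted p = 0.053) and in limma on TPM (adjusted p = 0.089). P3h2, which hydroxylates proline at carbon 3 in basement membrane collagen among others, had -0.23 (SE 0.03). The galactosyltransferase genes Colgalt2 and Colgalt1 had -0.27 (SE 0.04) and -0.11 (SE 0.03).

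Of 17 tested genes of chaperones and collagen secretion 13 fell and 1 rose (median -0.13), of which 1 fall and the rise were left against 1.2-fold. The falls of Fkbp10, Fkbp9, Sec23a and Kdelr2 given here were not among those left. Fkbp10, a prolyl isomerase known to support lysyl hydroxylase 2, fell to 435 ± 0.663 TPM with M-LPS-EV, against 518 ± 12.5 TPM with M-EV. Plod2, the gene of that hydroxylase, rose in the same libraries. Fkbp9 fell to 504 ± 1.85 TPM, against 612 ± 3.77 TPM with M-EV. Sec23a, a coat protein of the vesicles that carry procollagen out of the endoplasmic reticulum, had -0.30 (SE 0.03), and Kdelr2, a receptor that returns proteins to it, had -0.25 (SE 0.02). The one riser was Creb3l1, a transcription factor that drives collagen secretion in osteoblasts, at 42.7 ± 0.0737 TPM with M-LPS-EV and 27.8 ± 0.502 TPM with M-EV (0.63, SE 0.04, edgeR adjusted p = 1.3e-12).

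Of 8 tested genes of procollagen processing (of 9) 4 fell and 0 rose (median -0.35), and the 3 falls of Pcolce2, Pcolce and Adamts14 were left against 1.2-fold. Pcolce2 and Pcolce, enhancers of the proteinase that removes the C-terminal propeptide, fell to 192 ± 3.92 and 356 ± 4.10 TPM with M-LPS-EV, against 271 ± 3.66 and 476 ± 6.14 TPM with M-EV. The proteinase gene Bmp1, named after its values were seen, had 0.03 (SE 0.04, edgeR adjusted p = 0.64). The N-propeptidase genes Adamts14 and Adamts3 had -0.45 (SE 0.07) and -0.45 (SE 0.10), and Furin, a proprotein convertase, was not called (0.04, edgeR adjusted p = 0.33).

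Genes of cofactors and precursors split, with 2 of 8 tested (of 9) higher and 2 lower (median -0.007), and 1 of each, Slc23a2 and Pycr1, left against 1.2-fold. Slc23a2, which imports ascorbate, the cofactor that keeps the hydroxylases active, had 0.38 (SE 0.04, edgeR adjusted p = 3.5e-09). Atp7a, which loads copper onto lysyl oxidases, had 0.22 (SE 0.05), a call that ended with effective lengths as an offset (edgeR adjusted p = 0.080). Pycr1, a proline synthesis enzyme, fell to 105 ± 4.69 TPM with M-LPS-EV, against 137 ± 4.94 TPM with M-EV. Atox1, a copper chaperone, was not called (0.12, edgeR adjusted p = 0.16).

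P4ha1, P4ha2, Plod2 and Lox are known from other cells as hypoxia-inducible genes. In a list of 15 hypoxia-inducible genes and HIF hydroxylases, 12 rose and 0 fell, beside the 16.4% of all tested genes called higher; 11 of the rises were left against 1.2-fold, and the list's median was 0.50 on the log2 scale. The largest changes by significance were those of Car9 (1.76, SE 0.05), Ldha (0.64, SE 0.02), Bnip3 (0.72, SE 0.02), Egln1 (0.93, SE 0.03) and Pgk1 (0.47, SE 0.02). P4ha2 at 0.61 and Lox at 1.36 lay above that median, Plod2 at 0.22 and P4ha1 at 0.03 below it. Hif1an, a HIF hydroxylase of the list, was not called (-0.098, SE 0.039, edgeR adjusted p = 0.0553). It was called lower under some alternatives, such as upper-quartile scaling (edgeR adjusted p = 0.0275) and without M-LPS-EV replicate 1 (edgeR adjusted p = 0.0227). Of 14 general folding genes of the endoplasmic reticulum 10 fell and 1 rose (median -0.16), of which 1 fall and the rise were left against 1.2-fold, with Hspa5, the main chaperone there, at -0.34 (SE 0.02). Serpinh1 at -0.42 lay below that list's lowest value, and P4hb at -0.09 lay above its median.

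**Figure D5:**
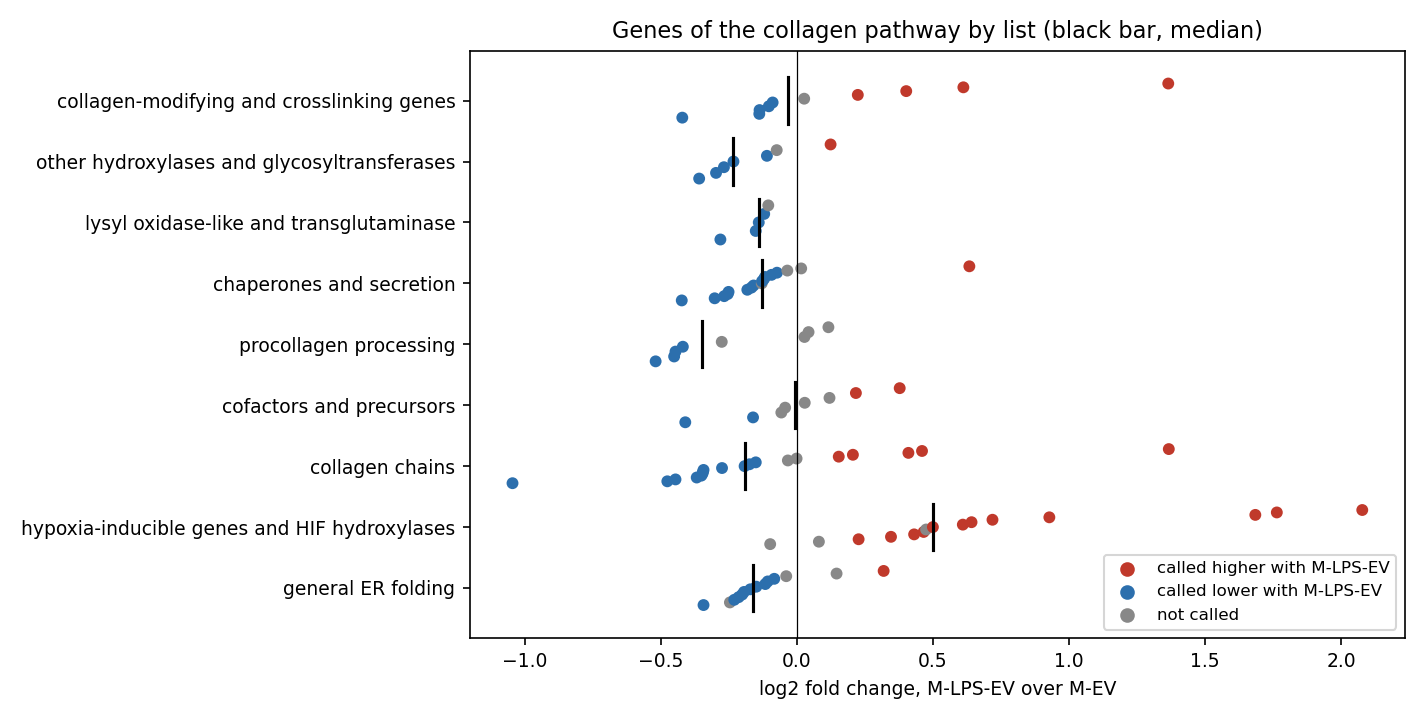
Log2 fold change of M-LPS-EV over M-EV for every tested gene of 9 lists, each point a gene, with red for called higher, blue for called lower, grey for not called and a black bar for the list's median. The 10 collagen-modifying genes spread from -0.42 to 1.36 around a median of -0.03, while the hypoxia list has its median at 0.50 and the other lists at or below 0.

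Promoters of 8 of the 10 genes were in the RefSeq promoter table (GRCm38.p6), each 300 bases long from 250 before the start that RefSeq gives the gene; Lox and Plod2 were the genes without an entry. For P4ha2 that start, 54100924, lies 829 bases downstream of the GENCODE start of the gene given above, while for the others it lies at most 53 bases from it. They were searched on both strands for ACGTG, a form of the core of the element that hypoxia-inducible factors bind. The other form, GCGTG, was not counted. ACGTG occurred in 6 of the 8: P4ha1, P4ha2, P4hb, Plod3, Serpinh1 and Ppib. The letters occur in 19.6% of all 32851 promoters in the table, and in 24.9% of the 13159 whose G and C content lies between 53.3% and 70.3%, the range of these 8. Genes that rose, fell and were not called were all among the holders of ACGTG. The promoters of Plod1, which rose, and Crtap, which fell, had no ACGTG, but both held GCGTG. P4ha1 and P4ha2 held GCGTG as well, and its share over all promoters was not counted.

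The promoters of P4ha2, P4ha1 and Serpinh1 are shown as those of a gene that rose, its paralog that was not called and the chaperone that fell. Capitals mark ACGTG or its reverse complement CACGT. They lie at chr11:54100674-54100973 (plus strand), chr10:59323046-59323345 (plus strand) and chr7:99353190-99353489 (minus strand).
P4ha2: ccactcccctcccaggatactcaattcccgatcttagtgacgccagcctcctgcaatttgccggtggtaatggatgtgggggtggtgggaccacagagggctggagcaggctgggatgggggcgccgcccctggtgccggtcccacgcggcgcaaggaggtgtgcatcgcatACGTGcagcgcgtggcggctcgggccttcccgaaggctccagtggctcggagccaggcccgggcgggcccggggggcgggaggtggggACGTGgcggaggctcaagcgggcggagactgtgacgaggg
P4ha1: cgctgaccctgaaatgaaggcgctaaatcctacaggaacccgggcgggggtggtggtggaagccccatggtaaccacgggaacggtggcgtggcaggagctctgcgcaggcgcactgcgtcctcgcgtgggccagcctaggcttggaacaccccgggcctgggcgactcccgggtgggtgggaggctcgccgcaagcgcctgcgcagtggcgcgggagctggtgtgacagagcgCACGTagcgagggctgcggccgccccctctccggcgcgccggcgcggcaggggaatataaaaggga
Serpinh1: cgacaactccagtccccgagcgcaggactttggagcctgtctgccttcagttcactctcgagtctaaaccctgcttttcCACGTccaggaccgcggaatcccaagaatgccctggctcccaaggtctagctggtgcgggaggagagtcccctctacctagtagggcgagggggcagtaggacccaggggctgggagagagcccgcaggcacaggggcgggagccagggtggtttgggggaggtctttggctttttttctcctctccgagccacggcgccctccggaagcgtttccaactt

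P4ha2 held the letters at positions -78 and 10 from the RefSeq start, P4ha1 at -16 and Serpinh1 at -171. The same windows were searched for the endoplasmic reticulum stress element, CCAAT and CCACG with 9 bases between them, which 0.119% of all promoters hold, and for the heat shock element in both phases, GAA, TTC and GAA or TTC, GAA and TTC with 2 bases between neighbours, each held by 0.603%. None of these occurred in the 8 promoters. A match of letters is a description and does not show that a factor binds.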

How the data were processed

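The 6 stranded mRNA libraries were assigned to M-LPS-EV or M-EV from their titles. STAR, RSEM and DESeq2 with the mm10 build were used by the authors, per the submitters' processing notes; the sources used here do not give versions, the strand setting or the annotation. The authors deposited, per transcript and library, an RSEM expected count, which shares reads among transcripts and need not be whole. The deposited tables also give TPM, scaled by effective length, the percent of the gene's abundance (IsoPct), and lengths, per the file headers; FPKM was not used. Of 142699 transcripts 99.14% were in GENCODE M21 (GRCm38, the same build as mm10), 99.7% of those with equal length, so its symbols and coordinates (1-based) were used.

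Expected counts were summed per gene, rounded, filtered with filterByExpr (minimum count 10, minimum total 15; 14604 genes), scaled by TMM and tested with edgeR 4.0.16 (R 4.3.3), with group as the only term; the fold is that of M-LPS-EV relative to M-EV. CPM use TMM-scaled library sizes. Usage was tested with diffSpliceDGE on transcripts with at least 10% of their gene, with Simes p-values. Shares and ratios of TPM were tested by exact permutation over libraries. Tests were tried on simulated data. Libraries of a group differed beyond sampling noise (mean chi-square 1.69 to 2.78 per degree of freedom; 26.5 to 33.7 between groups). RSEM's uncertainty is not modelled. All 10 genes and up to 5 genes per list with the smallest p were named. Some genes were named outside that rule, among them P4ha3, P3h3, Bmp1, single collagen chains and macrophage markers. The genes and lists were chosen with earlier results of these data known. A further gene of the cofactor list is counted but its values are not reported here. Alternatives were scaling by RLE or upper quartile, leaving the count filter out, requiring a mean of 50 counts, offsets from effective lengths, a replicate block, each library left out, DESeq2 1.42.0, limma 3.58.1 (voom; trend on log2(TPM + 1) and log2(TPM + 0.1)) and a 1.2-fold minimum. Figures were drawn with matplotlib 3.10.9.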

Additional observations from a re-analysis of the deposited data

How the results depend on the processing

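The 10 log2 fold changes kept their direction under all 17 alternatives to the gene test, and the 4 rises and 5 falls stayed calls in all but the test against 1.2-fold, which left 3 rises and 1 fall. Lox ranged from 1.33 to 1.40, P4ha2 from 0.60 to 0.64, Serpinh1 from -0.44 to -0.41 and Crtap from -0.22 to -0.12; P4ha1 was not called in any. Leaving out each library in turn gave 4 rises and 5 falls each time, with 2100 to 2245 of all genes called higher and 1878 to 2072 lower. Over all genes 1538 were called higher and 1329 lower with effective length offsets, 1280 and 1342 in limma on log2(TPM + 1), 1284 and 1335 on log2(TPM + 0.1), and 760 and 377 against 1.2-fold, beside 2397 and 2217; the cause was not tested beyond the higher bar of the last. The ratio of Crtap to collagen chains differed by -0.0143 per 1000, by 0.0648 with CPM in place of TPM, and by -0.182 to 0.0948 without each library, so its sign is not set. With the replicate number as a block 4 of the 10 genes rose and 5 fell, 2346 and 2173 of all genes were called, and no usage call was made among the 10 genes or among all 6357 tested, against 6 without the block. Whether equal replicate numbers mark paired libraries is not given in the sources used here. Same-numbered libraries had correlations of -0.0249, -0.0381 and -0.0123 in their deviations, and 0 of 6 libraries correlated best with its own number. With 3 libraries per group these values cannot settle whether libraries were paired. Transcript shares rest on RSEM's division of reads between forms that differ by a short exon, and how depth limits them was not tested.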
